A study of Mus musculus with 11 samples.

Results

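Glucuronidation and sulfation attach a charged group to steroids, bilirubin, thyroid hormone and drugs, which makes them more soluble and, for most hormones, inactive. Most enzymes of the UGT family transfer glucuronic acid from UDP-glucuronic acid, which the dehydrogenase encoded by Ugdh makes. Cytosolic sulfotransferases of the SULT family take sulfate from the donor PAPS, which the PAPS synthases Papss1 and Papss2 make from ATP and inorganic sulfate. The human adrenal gland releases much of its weak androgen as a sulfate, whereas the mouse adrenal makes little of it.

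The genes described are 8 of the 23337 gene rows of the deposited count table. They are Ugt1a1 and Ugt3a2 of the UGT family, the donor enzyme Ugdh, and the PAPS synthases Papss1 and Papss2. The others are the sulfotransferases Sult1a1, Sult1e1 and 2810007J24Rik (named Sult2a8 in RefSeq). All 8 were chosen by function, with earlier results of the comparison of orchectomized with intact mice in these counts known. Their differences between these groups are therefore a description. No p-value is given for them, and where a gene lies past or short of the threshold used for all genes, that is stated without support being drawn from it. Tests are reported for other genes of the same pathways. The lists of these genes were also chosen with earlier results of these data known, which limits their p-values too.

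The sequenced RNA came from whole adrenals of Hsd:Athymic Nude-Foxn1nu mice, males of a line with a defective thymus and few T cells. All had received VCaP cells, a human prostate cancer line, at study week 0 when they were about 5 to 6 weeks old, were divided into the groups at week 7 and were killed at week 15. The intact group (5 samples) kept the testes, and the ORX group (6 samples) is labelled orchectomized, which is removal of the testes. Both groups carry the Foxn1 mutation and the human cells. The sources used here do not say whether a sample is 1 gland, a pair or a pool.

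Library totals lay between 11368447 and 15029582 counts. The 7 markers of the adrenal cortex were all detected and together reached 31585 to 68397 CPM (read counts relative to the scaled library size) in intact and 58230 to 89267 CPM in ORX, while the 10 kidney markers reached at most 2.44 CPM and 4 of them (Umod, Nphs1, Slc12a3 and Cdh16) were at 0 in every library. In ORX, 3 of the 7 cortex markers and 3 of 3 marker genes of the X-zone, an inner cortical layer of young mice, passed the threshold below as higher, and 3 of 10 medulla and 4 of 6 zona glomerulosa markers as lower. Since whole glands were used, fewer cells of a type and less RNA per cell cannot be told apart.

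RefSeq start-site windows (build GRCm38.p6, 250 bases before to 50 after the start) were found for 7 of the 8 genes, all but Ugt3a2. Those of Ugt1a1, the gene with the largest difference, and of Sult1e1 and Sult1a1 are shown, because they hold different sets of the short motifs searched. Capitals mark matches, on either strand, to GTTAAT (a half-site of HNF1 factors), AGAACA (a half-site of androgen and glucocorticoid receptors) or AAGGTCA (a site of steroidogenic factor 1 and other orphan receptors).
Ugt1a1, chr1:88211709-88212008, plus strand: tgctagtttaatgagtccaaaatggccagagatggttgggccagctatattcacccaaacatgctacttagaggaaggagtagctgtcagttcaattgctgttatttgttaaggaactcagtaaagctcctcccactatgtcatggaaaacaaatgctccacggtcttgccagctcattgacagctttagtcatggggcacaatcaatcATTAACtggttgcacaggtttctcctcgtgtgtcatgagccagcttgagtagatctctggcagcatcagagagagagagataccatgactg
Sult1e1, chr5:87591562-87591861, minus strand: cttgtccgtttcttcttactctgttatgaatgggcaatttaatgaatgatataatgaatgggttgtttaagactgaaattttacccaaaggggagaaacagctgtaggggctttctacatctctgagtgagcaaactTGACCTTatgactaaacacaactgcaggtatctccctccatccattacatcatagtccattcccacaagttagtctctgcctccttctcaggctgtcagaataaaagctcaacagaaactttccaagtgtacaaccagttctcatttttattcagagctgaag
Sult1a1, chr7:126676369-126676668, minus strand: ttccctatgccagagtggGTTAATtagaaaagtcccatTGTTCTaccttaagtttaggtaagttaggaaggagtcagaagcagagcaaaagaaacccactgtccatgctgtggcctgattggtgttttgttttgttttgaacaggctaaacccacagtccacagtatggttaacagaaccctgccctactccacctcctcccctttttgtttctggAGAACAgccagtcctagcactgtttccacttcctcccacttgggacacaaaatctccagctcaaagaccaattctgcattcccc

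The match in Ugt1a1 lies from base -41 to -36 before the start, the one in Sult1e1 from -113 to -107, and Sult1a1 holds GTTAAT from -232 to -227 and AGAACA from -212 to -207 and from -34 to -29. A start window of 2810007J24Rik also holds AAGGTCA, from -165 to -159. Of 32851 windows of the same length, 7.1% hold GTTAAT, 19% AGAACA and 4.72% AAGGTCA on either strand. The cyclic AMP element TGACGTCA, held by 1.79% of all windows, was in none of the 10 windows of these genes. The core of the antioxidant response element, TGANNNNGC, was in 9 of the 10 and in 41.3% of all windows, and it does not overlap the capitals above. A match describes letters and is no evidence of binding.

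The enzyme Ugt1a1 conjugates bilirubin and oestrogens in the liver and gut. It lies on chromosome 1 (88211959 to 88218997, GENCODE M21 on GRCm38, plus strand). Its counts were 3, 1, 0, 1 and 0 in intact 1 to 5, and 138, 76, 37, 314, 193 and 44 in ORX 1 to 6. Every ORX library was thus above every intact library, and within ORX the highest, ORX 4, and the lowest, ORX 3, were 23.9 and 2.73 CPM. A count of 0 in intact 3 and intact 5 allows a level of up to 0.199 and 0.227 CPM (3 counts, for counting error only). The group means were 0.0775 ± 0.0895 and 10.04 ± 8.32 CPM (SD, n = 5 and 6), and the log2 fold change was 6.87 ± 0.86 (SE). From the pooled counts, 802 against 5, the ratio was 129, with a 95% interval of 55.0 to 398 that covers counting error only and leaves out the spread between samples.

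Ugt3a2 belongs to a small UGT family that uses other sugar donors, with UDP-glucose and UDP-xylose described for the human enzyme. It lies on chromosome 15 (9335550 to 9370955, plus strand). Its counts were 5, 1, 5, 3 and 2 in intact 1 to 5, and 11, 12, 10, 11, 13 and 25 in ORX 1 to 6. All ORX libraries were again above all intact ones, and ORX 6 was the highest. The means were 0.237 ± 0.118 and 1.01 ± 0.441 CPM (log2 2.03 ± 0.42).

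Of the 8 genes, 7 passed the filter on low counts, and 2 of these, Ugt1a1 and Ugt3a2, passed the threshold (edgeR's quasi-likelihood test, Benjamini-Hochberg adjusted p under 0.05 over all tested genes), both as higher. Over all 14139 tested genes 6.21% were called, 3.03% as higher and 3.18% as lower. The same 2 genes were those without overlap between the groups, against 5.28% of tested genes. Nothing is read from these shares, since the contrast was known when the genes were picked. In addition, both genes had fewer than 10 counts in every intact library and passed the filter only through the ORX group. Ugt3a2 fell below that filter when any 1 of ORX 1, 2, 4, 5 or 6 was left out, and with the other libraries left out in turn its log2 fold change ranged from 1.83 to 2.22.

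**Figure D1:**
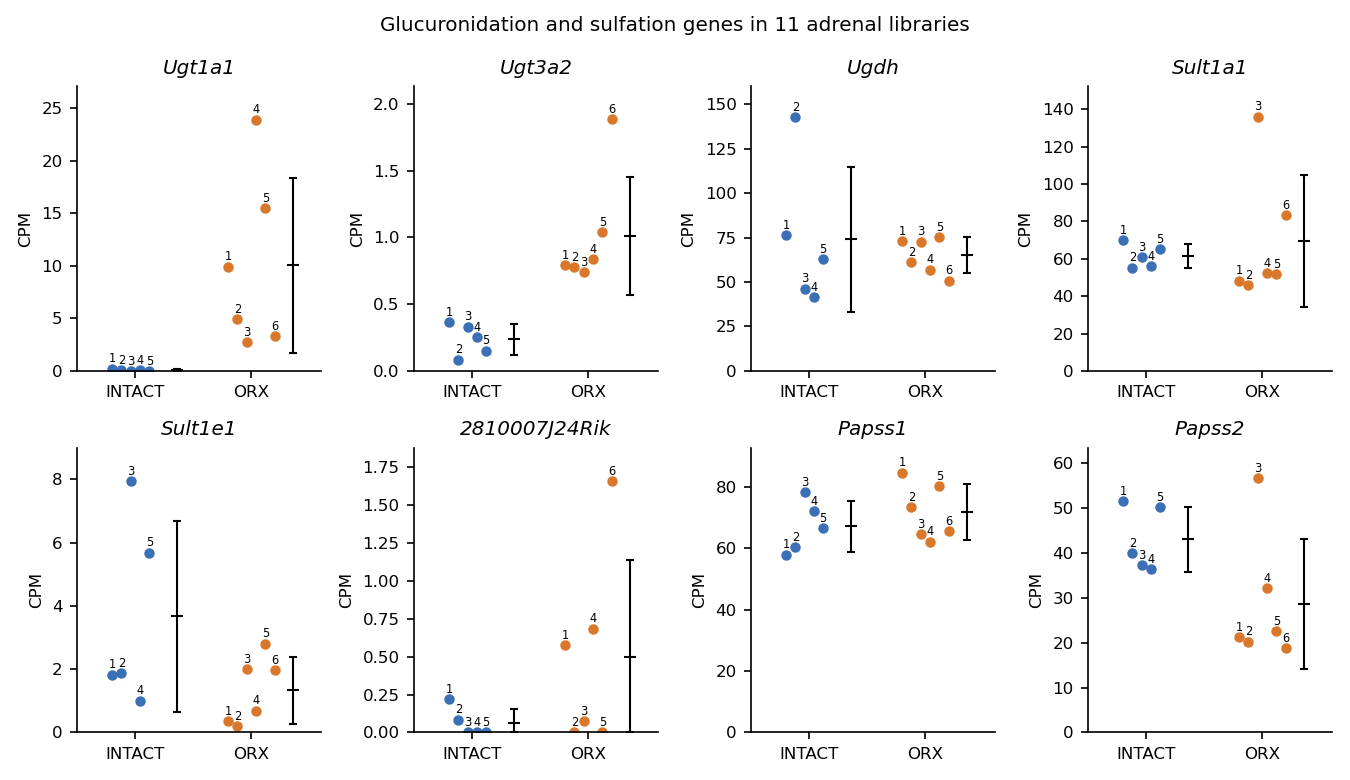
CPM of each of the 8 genes by library (vertical axis, linear; the small numbers are the sample numbers), for intact (blue, n = 5) and ORX (orange, n = 6), with mean and SD as a bar cut at 0. Ugt1a1 and Ugt3a2 show no overlap between the groups, and ORX 3 is the highest ORX library for Sult1a1 and Papss2.

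The X-zone markers Akr1c18, Pik3c2g and Thrb moved with Ugt1a1. Their summed level was 28.7 to 40.2 CPM in intact and 831 to 2911 CPM in ORX, with ORX 3 (831 CPM) and ORX 6 (913 CPM) the lowest of the ORX group. These were also the lowest ORX libraries for Ugt1a1, at 2.73 and 3.32 CPM. The highest X-zone sum was in ORX 1, where Ugt1a1 was 9.91 CPM, and not in ORX 4. The part of X-zone cells in the Ugt1a1 difference was not tested.

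Ugt1a1 is 1 of a cluster of 9 annotated genes that each have a first exon of their own and share the exons after it. Of its 2224 exonic bases, 1311 are shared by all 9 genes and 913 belong to Ugt1a1 alone. The table holds 8 of the 9 rows, and 2 of them, Ugt1a2 and Ugt1a10, were at 0 in every library. Reads that lie wholly in the shared exons were therefore not credited to every gene of the cluster. Ugt1a5 had 2 counts, both in ORX 4, and Ugt1a9 had 2 in intact 5 and 2 in ORX 4.

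The remaining rows of the cluster were Ugt1a6a, Ugt1a6b and Ugt1a7c, whose human relatives conjugate small phenols. Ugt1a6a had 17 to 64 counts in intact and 24 to 99 in ORX (log2 0.41 ± 0.46; edgeR adjusted p = 0.642). Ugt1a6b had 9 to 48 and 1 to 75 counts (log2 0.37 ± 0.73; edgeR adjusted p = 0.807), and Ugt1a7c had 16 to 29 and 8 to 74 (log2 0.45 ± 0.47; edgeR adjusted p = 0.613). Their groups overlapped. The difference between these genes and Ugt1a1 was not itself tested. Within the cluster, Ugt1a1 made up 0% to 2.52% of the counts in an intact library (95% exact Clopper-Pearson interval of the highest, intact 1, 0.523% to 7.19%). In ORX it made up 15.7% (11.3% to 21.0%) in ORX 3 and 51.2% (40.1% to 62.1%) to 71.1% (64.2% to 77.4%) in the other 5 libraries. These shares do not depend on how the libraries are scaled, but they are shares of counts and not of transcripts. The bases of its own are 913 for Ugt1a1, 938 for Ugt1a6b, 2142 for Ugt1a6a and 1915 for Ugt1a7c, and how reads in the shared exons were counted is not known. An antisense transcript, Gm20528, covers 922 exonic bases of Ugt1a1, and without a stated strand setting its reads cannot be told from those of Ugt1a1.

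**Figure D2:**
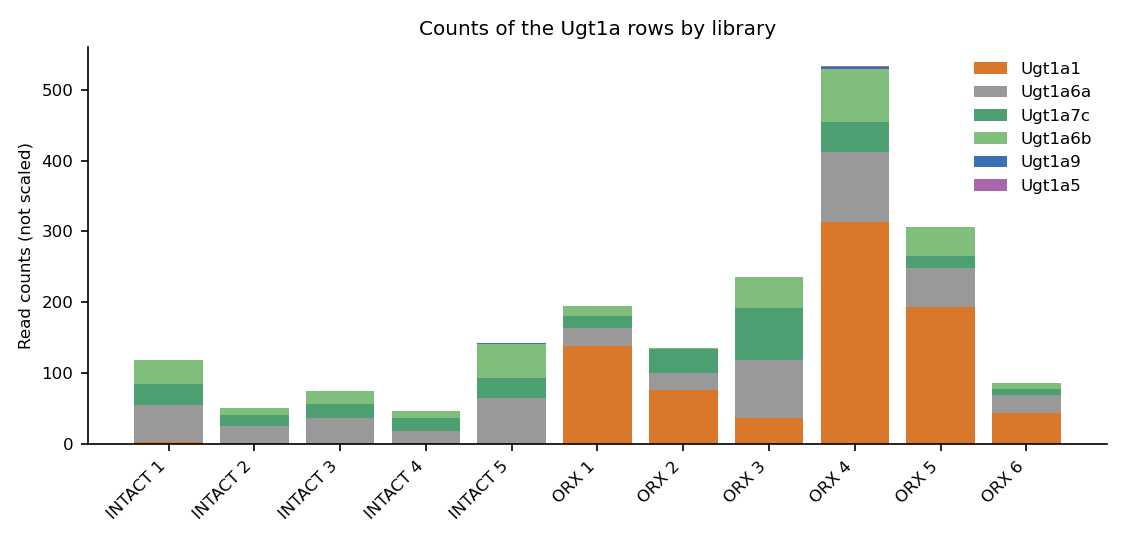
Unscaled read counts (vertical axis) of the 6 Ugt1a rows with any count, stacked for each of the 11 libraries (horizontal axis). Ugt1a1 (orange) has 0 to 3 counts in the intact libraries and 37 to 314 in the ORX libraries, beside rows of Ugt1a6a, Ugt1a6b and Ugt1a7c that are present in both groups.

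The other UGT rows were close to empty. The Ugt2 family conjugates androgens in human liver and prostate. Its 10 rows together had 0 to 10 counts in an intact library and 0 to 46 in an ORX library. The highest sum was in ORX 6, and none of the rows passed the filter on low counts. The 3 tested UGT genes besides Ugt1a1 and Ugt3a2 are the Ugt1a rows above, none past the threshold. Their median log2 fold change was 0.41, against 0.01 over all tested genes.

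Ugdh makes the glucuronic acid donor used by the UGT enzymes that transfer glucuronic acid and by the enzymes that build matrix chains. It lies on chromosome 5 (65413221 to 65435949, minus strand) and shares 158 exonic bases with Gm43552 on the same strand. Its level was 76.3, 143, 46.3, 41.4 and 62.9 CPM in intact 1 to 5, and 73.1, 61.3, 72.8, 57.0, 75.2 and 50.8 CPM in ORX 1 to 6. Intact 2 was the highest of all libraries, and the ORX range lay within the intact range. The means were 74.0 ± 40.9 and 65.0 ± 10.1 CPM (log2 -0.18 ± 0.27), and without intact 2 the log2 fold change was 0.20. Of 8 other tested genes that supply, move or remove glucuronic acid, none passed. The lowest log2 fold change among them was that of Pgm1, a phosphoglucomutase, at -1.04 ± 0.34 (edgeR adjusted p = 0.0829). The transporter of UDP-glucuronic acid Slc35d1 was at log2 -0.23 ± 0.27 (edgeR adjusted p = 0.646) and the lysosomal beta-glucuronidase Gusb at 0.24 ± 0.15 (edgeR adjusted p = 0.359). These 3 genes were named after their values were seen.

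Sult1a1 sulfates phenols and, weakly, oestrogens, and it was the main sulfotransferase row of these glands, with 67.7% to 87.6% of all SULT counts in a library. It lies on chromosome 7 (126672865 to 126676432, minus strand). Its level was 70.0, 55.3, 60.7, 56.1 and 65.1 CPM in intact 1 to 5, and 48.3, 45.8, 136, 52.2, 51.6 and 83.2 CPM in ORX 1 to 6. In ORX, 4 libraries were below every intact library and the other 2, ORX 3 and ORX 6, were above every one. The means were 61.4 ± 6.20 and 69.5 ± 35.3 CPM (log2 0.18 ± 0.26), and without ORX 3 the log2 fold change was -0.13.

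The 8 fat markers, all detected and none past the threshold, moved with Sult1a1 across the ORX libraries. Their summed level was 8111, 4455, 11704, 6398 and 9068 CPM in intact 1 to 5. In ORX it was 12916 CPM in ORX 3, 7613 CPM in ORX 6 and 2747 to 4357 CPM in the other 4. The same 2 libraries were thus the highest of the ORX group in both measures. Intact 1, 3 and 5 had sums above that of ORX 6, but Sult1a1 there was 70.0, 60.7 and 65.1 CPM, below ORX 6. The part of fat in the Sult1a1 values was not tested. Sult1a1 shares 61 exonic bases with a neighbour on the opposite strand.

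Sult1e1, the oestrogen sulfotransferase, inactivates oestrogens and in mice is known from testis and fat. It lies on chromosome 5 (87575969 to 87591594, minus strand). Its counts were 25, 22, 120, 12 and 75 in intact 1 to 5, and 5, 3, 27, 9, 35 and 26 in ORX 1 to 6. Intact 3 and intact 5 were the highest, and the groups overlapped. The means were 3.67 ± 3.01 and 1.33 ± 1.06 CPM (log2 -1.47 ± 0.65), without passing the threshold. Leaving out 1 library at a time moved the log2 fold change between -1.83 and -0.99. Intact 3 had the highest fat marker sum of the intact group, 11704 CPM, and intact 5 the next, 9068 CPM. In ORX 3, with the highest sum of all, Sult1e1 was 1.99 CPM. The part of fat in these values was not tested.

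The row 2810007J24Rik is a member of the SULT2A subfamily, whose enzymes sulfate bile acids and hydroxysteroids in the liver. It lies on chromosome 7 (14410686 to 14446769, minus strand). Its counts were 3, 1, 0, 0 and 0 in intact 1 to 5, and 8, 0, 1, 9, 0 and 22 in ORX 1 to 6. ORX 6, 4 and 1 held 39 of the 44 counts, and the groups overlapped. It did not pass the filter on low counts and was not tested. Pooled, the 40 against 4 counts give a ratio of 8.04 (95% interval 2.91 to 30.9, counting error only). The 7 rows named Sult2a were at 0 in every library, except for 1 count of Sult2a7.

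Alb, the serum albumin gene and a defining liver marker, moved with 2810007J24Rik. It had 368, 67, 20, 18 and 16 counts in intact 1 to 5, and 487, 21, 191, 988, 47 and 2370 in ORX 1 to 6. All 5 libraries with 0 counts of 2810007J24Rik had under 50 counts of Alb, and the 3 libraries with the most of one had the most of the other. All 10 liver markers were detected and none of the 6 tested passed the threshold. Their sum of 481 to 1781 CPM in intact and 167 to 2376 CPM in ORX was mostly Cyp2e1. Unlike Alb, Cyp2e1 did not move with 2810007J24Rik. It was highest in ORX 3, at 31874 counts, and had 4347, 3611 and 7807 counts in ORX 1, 4 and 6. The part of liver RNA in the counts of 2810007J24Rik was not tested.

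**Figure D3:**
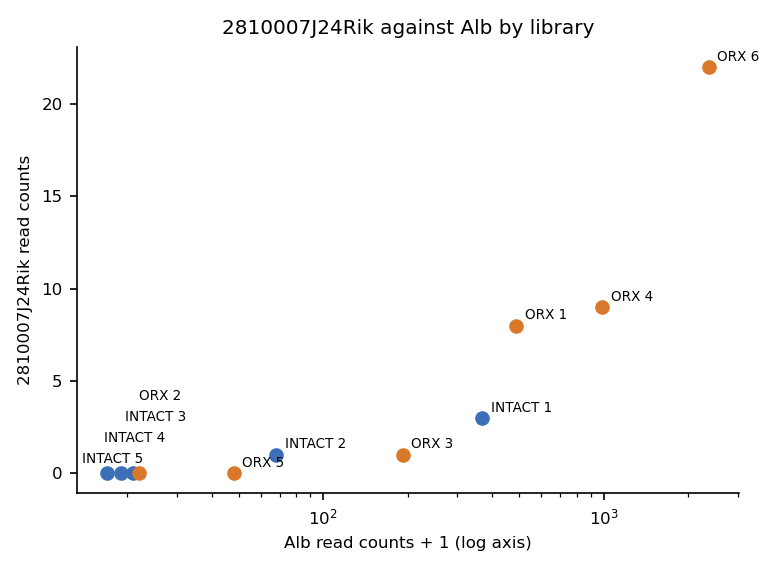
Read counts of 2810007J24Rik (vertical axis) against those of Alb plus 1 (horizontal log axis), 1 point for each intact (blue) or ORX (orange) library. The libraries with 0 counts of 2810007J24Rik are those with the fewest Alb counts, and ORX 6 is highest in both.

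The 3 other sulfotransferases tested, named after their values were seen, did not pass. They were Sult2b1, which sulfates cholesterol, at log2 0.23 ± 0.37 (edgeR adjusted p = 0.752), the brain-type Sult4a1 at -0.51 ± 0.25 (edgeR adjusted p = 0.242) and Sult5a1 at -0.44 ± 0.36 (edgeR adjusted p = 0.496). Of 20 cytosolic sulfotransferase rows in the table, 11 were at 0 in every library, which at this depth allows at most 0.195 to 0.255 CPM per library.

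Papss1 and Papss2 each join ATP sulfurylase and APS kinase in 1 protein. PAPSS2 is, in humans, the form that supports sulfation of adrenal androgens and of cartilage. Papss1 (chromosome 3, 131564768 to 131643671, plus strand) was 57.9, 60.4, 78.2, 72.1 and 66.5 CPM in intact 1 to 5, and 84.5, 73.3, 64.4, 62.1, 80.2 and 65.5 CPM in ORX 1 to 6. The groups overlapped over most of their range (means 67.0 ± 8.33 and 71.7 ± 9.21 CPM; log2 0.10 ± 0.13).

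Papss2 (chromosome 19, 32595790 to 32667187, plus strand) was 51.5, 39.9, 37.2, 36.5 and 50.2 CPM in intact 1 to 5, and 21.3, 20.3, 56.7, 32.1, 22.5 and 18.9 CPM in ORX 1 to 6. All ORX libraries but ORX 3 were below every intact library, and ORX 3 was above every one. The means were 43.1 ± 7.26 and 28.6 ± 14.5 CPM (log2 -0.59 ± 0.27), which did not pass the threshold. Without ORX 3 the log2 fold change was -0.91 and passed it.

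Within a library, Papss2 made up 32.3% to 47.1% of the counts of both PAPS synthases in intact (mean 39.2% ± 6.27, SD, n = 5). In ORX it was 20.1% (95% exact Clopper-Pearson interval 18.1% to 22.2%) in ORX 1, 34.1% (31.4% to 36.8%) in ORX 4 and 46.8% (44.4% to 49.3%) in ORX 3 (mean 27.8% ± 10.6, n = 6). The other 3 ORX libraries lay between 21.6% and 22.4%.

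**Figure D4:**
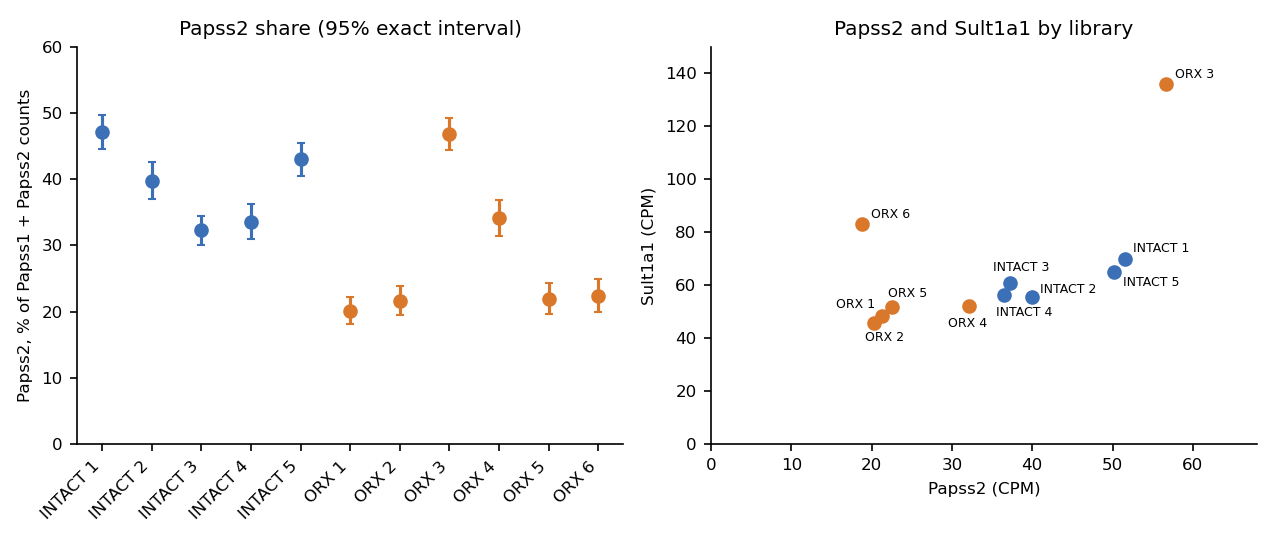
Left, Papss2 as a percentage of the counts of Papss1 and Papss2 in each library, with 95% exact intervals; right, Sult1a1 against Papss2 in CPM, 1 point for each intact (blue) or ORX (orange) library. ORX 3 has a Papss2 share of 46.8%, inside the intact range, and is highest for both genes on the right.

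The 6 markers of capsule and stroma, of which none passed the threshold, summed to 572 to 1173 CPM in intact. In ORX they summed to 1308 CPM in ORX 3, the highest of all libraries, to 749 CPM in ORX 4, the next in its group for Papss2 as well, and to 404 to 526 CPM in the other 4. The part of stroma in the Papss2 values was not tested.

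Of 14 other tested genes for PAPS transport, PAP breakdown and sulfate, none passed the threshold, and their median log2 fold change was 0.03. Slc35b2, the main carrier of PAPS into the Golgi, was at 0.61 ± 0.22 (edgeR adjusted p = 0.109). Bpnt1 and Impad1, which break down the by-product PAP, were at -0.12 ± 0.18 (edgeR adjusted p = 0.73) and -0.13 ± 0.31 (edgeR adjusted p = 0.835). These 3 were named after their values were seen.

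Over all 8 lists of the wider pathways, 79 tested genes besides the described ones included 3 higher and 2 lower in ORX, 6.33% called against 6.21% of all tested genes, a share near the background. Chst2, a Golgi sulfotransferase that uses PAPS to sulfate N-acetylglucosamine, rose. It was 22.9 to 43.3 CPM in intact and 65.8 to 154 CPM in ORX, without overlap (log2 1.68 ± 0.26; edgeR adjusted p = 0.00253). Hs6st1, which sulfates heparan chains, rose from 139 ± 39.3 to 252 ± 70.5 CPM with overlap (log2 0.86 ± 0.23; edgeR adjusted p = 0.0437). They were the only 2 of 23 Golgi sulfotransferases past the threshold, and the other 21 did not pass (median of the 23, log2 0.16).

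Arsi, a gene of the sulfatase family, fell from 0.861 to 2.43 CPM in intact to 0.151 to 0.503 CPM in ORX, without overlap (log2 -2.31 ± 0.35; edgeR adjusted p = 0.00244), and was the only 1 of 9 sulfatase genes past the threshold. Its counts were 13 to 29 in intact and 2 to 7 in ORX, so that it passed the filter on low counts only through the intact group, and it was not tested under the filter of 1 CPM in 5 libraries. Among 8 tested transporters of conjugates, Slco2b1, which takes up steroid sulfates, rose. It was 19.7 to 54.5 CPM in intact and 46.3 to 150 CPM in ORX, with overlap (log2 1.33 ± 0.30; edgeR adjusted p = 0.0222). Abcc5, an exporter of organic anions, fell, from 83.7 to 144 CPM in intact to 61.3 to 85.7 CPM in ORX, with a narrow overlap (log2 -0.57 ± 0.15; edgeR adjusted p = 0.0364). None of the 11 tested genes that build glucuronic acid into matrix chains passed. Has1, Has2, Chsy3 and B3gat2 of that list fell below the filter on low counts and were not tested. Their summed counts in intact and ORX were 220 and 14 for Has1, 31 and 6 for Has2, 41 and 28 for Chsy3, and 1 and 4 for B3gat2. Of these only Has2 was without overlap between the groups.

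The call of Chst2 held without any 1 library. That of Hs6st1 ended without intact 1, 2, 3 or 5 or ORX 1, 2, 4 or 5 (edgeR adjusted p 0.0694 to 0.121), that of Abcc5 without intact 1, 2 or 3 or ORX 1, 2, 4 or 5 (edgeR adjusted p 0.0516 to 0.088) with scaling by library totals (edgeR adjusted p = 0.0558) and without intact 3 and ORX 6 together (edgeR adjusted p = 0.0584), and that of Slco2b1 without intact 1, 2 or 5 (edgeR adjusted p 0.0552 to 0.0643). Slco2b1 and Hs6st1 overlap antisense genes.

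**Figure D5:**
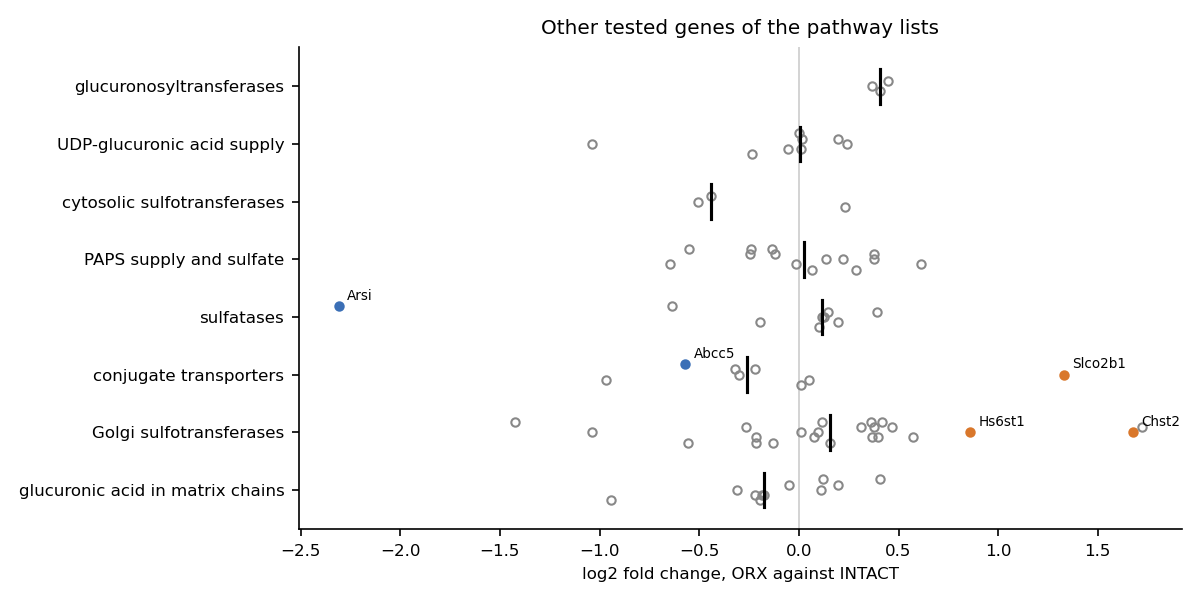
Horizontal axis, log2 fold change of ORX relative to intact for the 79 tested genes of 8 pathway lists besides the described ones, 1 circle a gene, filled orange or blue where it passed as higher or lower, open where it did not, with each list's median as a black bar. Of the 5 filled circles Arsi lies farthest left at -2.31 and Chst2 farthest right of the filled ones at 1.68.

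Per kilobase of exon, the order in intact glands was Sult1a1 (40.8 ± 4.11 CPM per kb), Papss1 (22.0 ± 2.73), Papss2 (11.6 ± 1.95) and Ugdh (11.0 ± 6.06), then Sult1e1 (2.95 ± 2.42). Papss2 and Ugdh did not differ beyond their spread. Ugt1a1 (0.0849 ± 0.098 CPM per kb of its own 913 bases), Ugt3a2 (0.0763 ± 0.0381) and 2810007J24Rik (0.0185 ± 0.0291) were last, within each other's spread. In ORX, Sult1a1 (46.1 ± 23.4 CPM per kb) and Papss1 (23.5 ± 3.02) were again first, followed by Ugdh (9.63 ± 1.49) and Papss2 (7.69 ± 3.91). Ugt1a1 was 11.0 ± 9.11 CPM per kb of its own bases and 4.51 CPM per kb of all its 2224 exonic bases, so its place in the order depends on how reads in the shared exons were counted, which is not known. Sult1e1 (1.07 ± 0.856), Ugt3a2 (0.326 ± 0.142) and 2810007J24Rik (0.152 ± 0.196) were below them. Exon lengths are those of GENCODE M21, which may differ from the annotation behind the counts.

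The spread between libraries of the same group differed among the genes. On the log2 CPM scale the standard deviation within groups was 0.18 for Papss1, the steadiest, and 0.47 to 0.59 for Sult1a1, Papss2, Ugdh and Ugt3a2, beside a median of 0.37 over all tested genes. It was 1.26 for Ugt1a1, 1.37 for Sult1e1 and 1.98 for 2810007J24Rik. In intact, counts of 0 to 3 for Ugt1a1 and for 2810007J24Rik spanned log2 CPM from -4.92 to -1.97. So near 0 counts the spread depends on single reads and the prior count of 0.5, as do the correlations below.

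With each group centred on its own mean, the genes did not vary as 1 set over the 11 libraries. The highest Pearson r between any pair was 0.71, for Sult1a1 and Papss2, and without ORX 3 it was -0.03, so that it rested on that library. The lowest was -0.64, for Ugt3a2 and Ugdh. Intact 2 had the highest Ugdh level of all libraries and only 1 count of Ugt3a2, and r without it was not computed. Libraries share depth and RNA quality across genes, so these are descriptions.

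The genes most like each one over the same 11 centred values, among 13726 genes with a mean of at least 1 CPM, differed from gene to gene. For 2810007J24Rik they were the liver-produced Alb (r = 0.97, and 0.96 without ORX 6), Serpinc1 (0.95) and Fgb (0.95), which encode albumin, antithrombin and a fibrinogen chain. For Sult1a1 they were Pmvk (0.96), Cfd (0.94) and Fkbp9 (0.93), of which Cfd, adipsin, is one of the fat markers. For Papss2 they were Pkp4 (0.98) and the collagen VI genes Col6a2 (0.94) and Col6a5 (0.94). Ugdh was nearest to Isg20l2 (0.97), Smarca5 (0.96) and Nostrin (0.95), and Orc5 (0.93) and Tbc1d12 (0.92) were among those nearest to Papss1. Sult1e1 was nearest to Sox17 (0.94), B630019K06Rik (0.92) and Oas1a (0.91), Ugt3a2 to Sars2 (0.92), Sssca1 (0.91) and Fsd1 (0.91), and Ugt1a1 to Papd7 (0.91), 2410127L17Rik (0.87) and Runx2 (0.83). Each is among the highest of 13726 values, picked for being high, over only 11 libraries.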

How the data were processed

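The deposited table holds raw read counts per gene symbol for 11 libraries (TruSeq kits, 300 ng of RNA each, per the labels' protocols), in 2 identical copies, of which the first was used. The tools bcl2fastq 1.8.4 and Subread 1.5.1 and the build mm10 appear in the submitters' processing notes, with no role. The annotation, the strand setting and the treatment of multi-gene reads were not given in the sources used here, so counts of genes with shared or antisense exons are uncertain. Nothing in the labels ties a sample to its own animal, so p-values reflect only the spread among these libraries, part of which may be technical.

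Genes were filtered with filterByExpr (minimum count 10, minimum total 15), scaled by TMM, and compared by the quasi-likelihood test of edgeR 4.0.16 in R 4.3.3 (two-sided, ORX against intact, no covariate) and adjusted by Benjamini-Hochberg over the 14139 tested genes. Each standard error was derived from log2 fold change and F. Log2 CPM for spreads and correlations used a prior count of 0.5. The procedure was tested on simulated counts. The 8 genes and the pathway and marker lists were chosen with earlier results of these data known. The genes named are those 8, every Ugt1a row, up to 6 genes past the threshold per list and the 3 genes most like each of the 8, except where stated; 1 of those most like Papss1 is not reported here. Alternatives used DESeq2 1.42.0, limma 3.58.1, other scalings, filters and thresholds, a replicate block and left-out libraries.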

Additional observations from a re-analysis of the deposited data

Results flagged for a closer look

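Ugt3a2 in ORX 6 was 1.89 CPM (25 counts), against 0.737 to 1.04 CPM in the other ORX libraries, a gap that is wide for a group of 6 on the log2 scale. It was the only flag among the 16 combinations of gene and group checked, and chance flags about 1 in 20 such groups.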

How the results depend on the processing

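Main counts were 878 genes called (428 higher), 2 of the 8 described genes and 5 of the 79 other listed genes. For these 3 counts in turn, DESeq2 gave 1630 genes and 9 listed genes, limma voom 2056 and 11, an adjusted p under 0.01 gave 260, 1 and 2, a test against a 1.5-fold change 174, 1 and 2, and the filter of 1 CPM in 5 libraries 1 of the described genes. Without a filter, 7 listed genes were called, 3 higher and 4 lower. Leaving out 1 library at a time gave 408 to 1280 genes, 1 to 3 described and 2 to 10 listed, and leaving out intact 3 and ORX 6 together gave 8 listed. No pairing of the samples by number was seen (correlations of deviations between same-numbered samples -0.25 to 0.18, and 1 of 5 intact libraries best with its own number). Such a check can miss a small shared effect. With the number as a replicate block, without ORX 6, 409 genes and 1 described gene were called, and Abcc5 lost its call (edgeR adjusted p = 0.136).

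Over 21 alternatives the log2 fold change of Ugt1a1 was 6.40 to 7.70. Ugt3a2 was below the filter in 7 and short of the threshold in 2 of the other 14, at adjusted p under 0.01 and against a 1.5-fold change. Papss2 was past it without ORX 3 and with limma voom (log2 -0.91 and -0.76). The sign turned, always without a call, for Sult1a1 with limma voom (-0.14), without ORX 3 (-0.13) and with the sample number as replicate block (-0.024), and for Ugdh without intact 2 (0.20) and with that replicate block (0.028). Leaving out 1 library at a time, Sult1a1 ranged from -0.13 to 0.26 and Ugdh from -0.35 to 0.20. The causes were not tested. Without a filter, 2810007J24Rik was at log2 2.82, short of the threshold. Low counts limit Ugt3a2, 2810007J24Rik, Sult1e1 and the size of the Ugt1a1 fold change. Ugt1a1 had only 5 counts over the intact libraries, and its pooled ratio of 129 had an interval of 55.0 to 398.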
